A study of Mus musculus with 556 samples.

Results

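The regions described here are 749 bins of 100 kb on the mouse autosomes that carried high Dam-lamin B1 signal in zygotes and at the 2-cell stage and low signal at the 8-cell stage. These bins, called members below, are 3.12% of the 24022 bins with a value. They were chosen by the mean ratio of observed to expected reads (OE) over single cells: at least 15% above the expected value of 1 in 19 zygotes and in 47 blastomeres of 2-cell embryos, and at most 0.85 in 41 blastomeres of 8-cell embryos. Below, a bin is called high in a group when its mean OE is at least 15% above 1, and low when it is at most 0.85. Of 3142 bins high in zygotes and at the 2-cell stage, these 749 are 23.8%. Another 1593 (50.7%) were still high at the 8-cell stage and 800 (25.5%) lay between both thresholds. The 1593 bins that stayed high serve below as the main comparison, beside all bins.

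The nuclear lamina is a protein mesh under the inner nuclear membrane, and the stretches of chromatin that touch it are called lamina-associated domains (LADs). LADs are mostly gene-poor and silent in differentiated cells. DamID reads these contacts with Dam, an adenine methyltransferase from bacteria. Fused to lamin B1, a lamina protein, it methylates the adenine in GATC where chromatin comes near the lamina. Dam alone marks accessible chromatin and is the control. After fertilisation the paternal and maternal genomes sit in separate pronuclei, and lamina contacts are laid down anew in the embryo.

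All values are from single cells. With Dam-lamin B1 the groups were 56 oocytes, 19 zygotes, 47 blastomeres of 2-cell and 41 of 8-cell embryos and 10 embryonic stem (ES) cells, and 17 and 23 further oocytes labelled with 20 and 50 ng. With Dam alone they were 43 oocytes, 46 zygotes, 45 blastomeres of 2-cell and 4 of 8-cell embryos. Pronuclei with Dam-lamin B1 were taken from zygotes mechanically, 15 paternal and 10 maternal. Others came from zygotes given wild-type Kdm5b mRNA (19 paternal, 19 maternal) or mutant Kdm5b mRNA (6 paternal, 13 maternal). Of the treated whole zygotes, all with Dam-lamin B1, 14 had wild-type and 9 mutant Kdm5b and 12 had wild-type and 10 mutant Kdm4d. Others were kept with DMSO (11) or aphidicolin (9), an inhibitor of DNA replication. The protocol text describes aphidicolin only for 2-cell embryos, while these cells are labelled as zygotes. The strain label was C57BL/6 for the oocytes, which were collected before ovulation, and for isolated pronuclei. It was C57BL/6 female x CAST/EiJ male for intact embryos of every stage and 129/Sv female x CAST/EiJ male for ES cells. The protocol names CBAxC57BL/6J hybrid females aged 5 to 8 weeks. All embryos with a stated protocol also received mRNA for the auxin receptor TIR1 and a membrane EGFP, and auxin was withheld for 6 to 8 h to restrict methylation to 1 stage. The Dam-lamin B1 mRNA was 5 ng/µl for the 56 oocytes, the 19 zygotes and all groups with Kdm5b. It was 10 for the 2-cell and 20 for the 8-cell stage. No such dose is stated for pronuclei without Kdm5b or for zygotes with Kdm4d, DMSO or aphidicolin. The mRNA for Dam alone was 20 ng/µl for oocytes and zygotes and 40 for the 2-cell and 8-cell stages. Kdm5b mRNA, wild-type or mutant, was 2 µg/µl. From zygote to 8-cell embryo the strain label is the same and the Dam-lamin B1 dose differs with stage. The Dam dose differs between zygotes and the later stages. The 56 oocytes share the dose of the 19 zygotes and differ from them in strain label. Stage can therefore not be told apart from dose or strain, and no stage was tested against another.

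Depth was recovered from the steps between low OE values. By this estimate a cell held between 23564 and 1091129 reads on the autosomes, with a median of 71774, and the true number may be a multiple of it. Summed over all cells of a group, the median member rested on 69 reads in zygotes, 148 at the 2-cell and 67 at the 8-cell stage with Dam-lamin B1. With Dam alone at the 8-cell stage, where there are 4 cells, it rested on 2 reads, and 158 members had none. Only 4 members held under 20 reads over all zygotes. Some cells stood apart. In 8 of the 45 2-cell blastomeres labelled Dam, the members lay above the cell's own mean over all bins, at 1.00 to 1.34, while the other 37 reached at most 0.768. In 1 of the 41 8-cell blastomeres with Dam-lamin B1 the members averaged 1.11, and the next highest cell reached 0.839.

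The promoters of 4 genes in members are printed to show where Dam can write there, with any GATC site in capitals. They are the 250 bases before an annotated transcript start of each gene, 5′ to 3′ in the direction of the gene, from RefSeq build GRCm38.p6. For Chrm3, Pcdh15 and Hoxc4 that start is not the outermost 1, and the stretch lies within the span of the gene. Chrm3 encodes a muscarinic acetylcholine receptor and lies in the longest run of members. Its stretch is chr13:10360804-10361053, minus strand. Oosp2 encodes a protein secreted by the oocyte (chr19:11660560-11660809, minus strand). Pcdh15, a protocadherin gene of the inner ear, lies in a member just inside the 8-cell threshold (chr10:73821617-73821866, plus strand). Hoxc4, a homeobox gene, lies at chr15:103034145-103034394, plus strand, in a member outside the LADs.
Chrm3: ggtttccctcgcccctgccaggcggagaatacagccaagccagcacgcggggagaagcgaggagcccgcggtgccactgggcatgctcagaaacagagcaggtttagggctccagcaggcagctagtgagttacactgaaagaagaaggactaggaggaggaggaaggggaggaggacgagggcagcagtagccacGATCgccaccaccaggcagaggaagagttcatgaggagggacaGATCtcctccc
Oosp2: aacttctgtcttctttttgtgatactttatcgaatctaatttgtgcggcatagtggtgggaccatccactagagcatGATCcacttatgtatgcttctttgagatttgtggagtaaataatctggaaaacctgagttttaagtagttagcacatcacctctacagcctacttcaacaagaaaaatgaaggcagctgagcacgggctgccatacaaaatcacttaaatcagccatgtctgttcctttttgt
Pcdh15: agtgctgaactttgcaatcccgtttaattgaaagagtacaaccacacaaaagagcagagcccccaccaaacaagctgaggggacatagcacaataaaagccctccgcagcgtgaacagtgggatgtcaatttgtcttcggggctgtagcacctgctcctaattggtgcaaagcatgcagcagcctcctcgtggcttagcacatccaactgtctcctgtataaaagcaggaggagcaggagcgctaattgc
Hoxc4: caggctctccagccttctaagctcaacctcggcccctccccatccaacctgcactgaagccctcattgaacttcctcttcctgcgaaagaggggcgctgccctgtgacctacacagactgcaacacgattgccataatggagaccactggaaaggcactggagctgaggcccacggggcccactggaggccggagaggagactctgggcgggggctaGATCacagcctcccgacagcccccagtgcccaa
The Chrm3 stretch holds 2 GATC sites, those of Oosp2 and Hoxc4 hold 1 each, and that of Pcdh15 holds none. These 4 were picked after the values had been seen, from genes named below. GATC reads the same on both strands. It occurred in 64 of the 166 such stretches that begin in a member (38.6%), in 40.3% of all 20041 and in 46.5% of the 695 in bins that stayed high. The median GC content was 50% in members, 56% over all stretches and 46.8% in the bins that stayed high. Of the 195 protein-coding genes with their midpoint in a member, 149 had an entry in the promoter table.

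The values that chose the members are given as a description. The members averaged 1.65 ± 0.160 (SD over 19 zygotes), 1.57 ± 0.191 (SD over 47 2-cell blastomeres) and 0.663 ± 0.120 (SD over 41 8-cell blastomeres). The lowest, median and highest zygote stood at 1.39, 1.62 and 1.91. The lowest, median and highest 8-cell blastomere stood at 0.461, 0.632 and 1.11. The mean over all bins was 1.02, 0.999 and 1.01 at these stages. A member had OE of at least 1 in 60.5% of zygotes, 60.2% of 2-cell and 24.7% of 8-cell blastomeres on average. For single members the share of such 8-cell blastomeres ran from 0 to 43.9%. At the threshold of 0.85 the nearest members were at 0.8499, 0.8498 and 0.8495 and the nearest bins left out at 0.8510, 0.8510 and 0.8517, so the border is not a gap. At the zygote threshold the nearest members were at 1.1518, 1.1522 and 1.1532 and the nearest left out at 1.1486, 1.1463 and 1.1454. At the 2-cell threshold the next members were at 1.1501 and 1.1511 and the nearest left out at 1.1496, 1.1486 and 1.1478.

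The drop at the 8-cell stage was smaller in cells that took no part in choosing, which were also the shallower cells of each group. When the same thresholds were applied to the deeper cells of each group only (9 zygotes, 23 2-cell and 20 8-cell blastomeres), they chose 918 bins. In the cells left aside those bins averaged 1.58 ± 0.146 in 10 zygotes and 1.51 ± 0.187 in 24 2-cell blastomeres (SD). In the 21 8-cell blastomeres left aside they averaged 0.832 ± 0.165, against 0.639 ± 0.120 in the 20 that chose them and 1.01 over all bins. Of the 918 bins, 71.9% and 72.5% were again high in these zygotes and 2-cell blastomeres, where 33.8% and 34.4% of all bins were. At the 8-cell stage 57.1% were again at most 0.85, beside 47.8% of all bins, and 15.4% were high, beside 32.4%. In the cells left aside the early signal was thus nearly as high, and the low 8-cell signal lay closer to the mean over all bins. Depth cannot be told apart here from having no part in the choice.

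**Figure D1:**
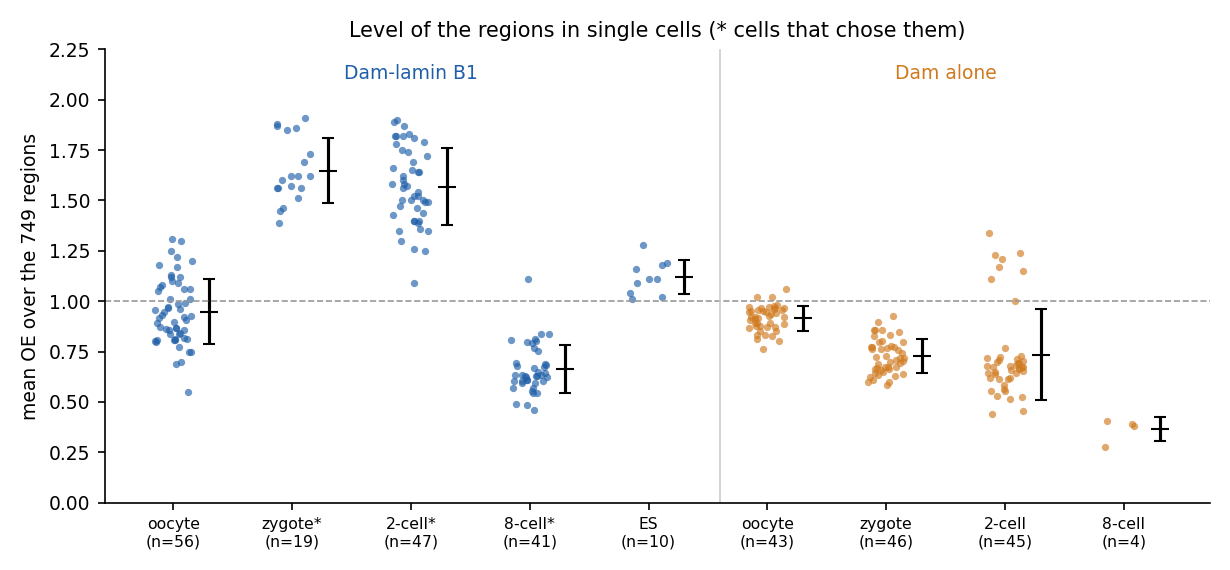
Each point is 1 cell and shows its mean OE over the 749 regions, with Dam-lamin B1 in blue and Dam alone in orange. Black bars give the mean and SD. Zygotes average 1.65 and 8-cell blastomeres 0.663 with Dam-lamin B1, and 8 of the 45 2-cell blastomeres labelled Dam stand at 1.00 or above.

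The label of lost contact is given with the Dam control beside it. In zygotes, 2-cell and 8-cell embryos the members were low with Dam alone, and at the 8-cell stage so were most other bins. With Dam the members averaged 0.916 ± 0.0623 in 43 oocytes, 0.728 ± 0.0856 in 46 zygotes and 0.735 ± 0.224 in 45 2-cell blastomeres (SD). The 4 8-cell blastomeres with Dam stood at 0.408, 0.389, 0.276 and 0.382, and leaving out each in turn gave means between 0.349 and 0.393. All 4 lay below every one of the 41 8-cell blastomeres with Dam-lamin B1, the lowest of which was at 0.461. The bins that stayed high had 0.971, 0.980 and 0.599 with Dam in zygotes, at the 2-cell and at the 8-cell stage. Those between the thresholds had 0.812, 0.820 and 0.458. With Dam at the 8-cell stage 91.6% of members were low, beside 61.5% of all bins and 81.5% of the bins that stayed high. The ratio of lamin B1 to Dam, on a log2 scale over the members, was 0.05 in oocytes, 1.18 in zygotes, 1.09 at the 2-cell and 0.87 at the 8-cell stage. Without the 8 2-cell cells labelled Dam that stood apart, the Dam level was 0.638 ± 0.0762 (SD, n = 37) and the 2-cell ratio 1.30. At the 8-cell stage the lamin B1 mean was above the Dam mean in 640 of 749 members (85.4%), beside 64.7% of all bins and 96.5% of the bins that stayed high. Those bins had a log2 ratio of 0.80 in zygotes and 1.55 at the 8-cell stage. The lamin B1 values in these ratios for zygotes, 2-cell and 8-cell embryos are the ones the rule used, and the 8-cell Dam level has the low depth given above. The ratios are therefore a description, and nothing is read from their order or from the count of 640, in which the 158 members without a Dam read are included.

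**Figure D2:**
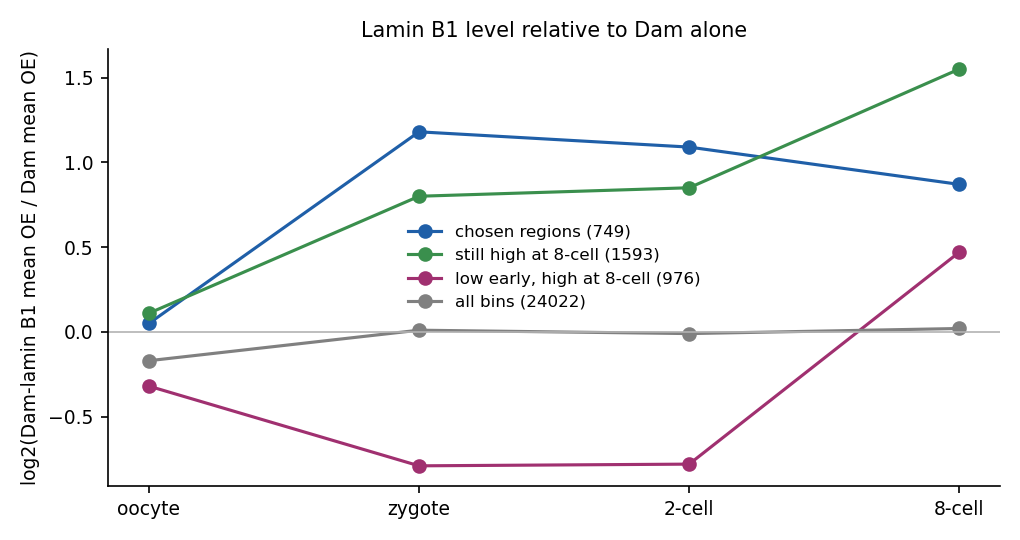
The log2 ratio of the mean OE with Dam-lamin B1 to that with Dam is plotted by stage for 4 classes of bins. The 749 regions go from 1.18 in zygotes to 0.87 at the 8-cell stage, the 1593 bins that stayed high from 0.80 to 1.55, and all bins stay near 0.

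The early signal was also present in zygote-stage samples that had no part in the choice. In 15 paternal pronuclei the members averaged 1.48 ± 0.140 and in 10 maternal pronuclei 1.63 ± 0.121 (SD), beside 1.04 and 0.982 over all bins. Every one of these 25 pronuclei had the members above its own mean over all bins. By group mean 578 members (77.2%) were high in paternal pronuclei, beside 34.9% of all bins, and 585 (78.1%) in maternal pronuclei, beside 31%. In both kinds at once it was 470 members (62.8%), in paternal only 108, in maternal only 115 and in neither 56. Zygotes kept with DMSO gave 1.41 ± 0.178 (SD, n = 11), with 75.4% of members high. The bins that stayed high gave similar shares in pronuclei, 71.1% and 70.2%.

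In oocytes and in ES cells the members stood closer to the mean over all bins than in zygotes. ES cells carry another strain label and are not a later stage of these embryos. In 56 oocytes with Dam-lamin B1 they averaged 0.948 ± 0.162 (SD), with 0.550, 0.924 and 1.31 in the lowest, median and highest oocyte, and all bins averaged 0.885. The oocytes labelled 20 and 50 ng gave 0.994 ± 0.0704 (SD, n = 17) and 0.993 ± 0.0821 (SD, n = 23). In oocytes 21% of members were high, beside 24.8% of all bins and 39% of the bins that stayed high. In ES cells the members averaged 1.12 ± 0.0855 (SD, n = 10), beside 0.990 over all bins. Each of the 10 cells had them above its own mean, by 1.02 to 1.29 times. In these ES cells 327 members (43.7%) were high again, beside 32% of all bins, and 158 (21.1%) low, beside 42.9%. Of the bins that stayed high, 65.1% were high in ES cells. In both oocytes and ES cells 65 members (8.68%) were high, beside 6.49% of all bins, and in neither 330 (44.1%), beside 49.7%.

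Single members differed widely. The 3 members lowest in oocytes lay at chr5:11000001-11100000 (0.0703), chr19:35100001-35200000 (0.174) and chr3:82900001-83000000 (0.254). Of these only the last touches a protein-coding gene, Lrat, an enzyme of retinol storage. The 3 highest were chr14:109600001-109700000 (2.50), chr13:119500001-119600000 (2.24), which holds Tmem267, and chr5:59100001-59200000 (2.11). In ES cells the highest were chr11:17300001-17400000 and chr12:68200001-68300000 (both 2.12) and chr12:11600001-11700000 (2.09). The lowest in ES cells were chr5:11000001-11100000 (0), the Gsn bin at chr2:35200001-35300000 (0.231) and chr4:145800001-145900000 (0.240). Gsn encodes the actin-severing protein gelsolin, and its bin lies outside both LAD lists. The Tmem267 bin had 17.4 with Dam at the 8-cell stage, the highest such value of the 749 members. It rested on 2 reads over the 41 8-cell blastomeres with Dam-lamin B1, and chr5:11000001-11100000 on 1, so these extremes carry a large counting error.

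The members gathered in the part of the chromosomes towards the centromeric end. Mouse chromosomes have their centromere at 1 end, where the coordinates begin. The median member started 22.7 Mb from that end, beside 66.5 Mb for all bins and 59 Mb for the bins that stayed high. For the 800 bins between both thresholds at the 8-cell stage the median was 27.6 Mb, so these also gathered near that end. For the 976 bins that were low early and high at the 8-cell stage it was 89.1 Mb. Within the first 40 Mb lay 570 members, or 76.1% (95% exact binomial interval 72.9 to 79.1%, counting error only), beside 29.2% of all bins. It was 64.5% of the bins between the thresholds, 36.7% of those that stayed high and 12.8% of those that rose late. From 100 Mb on there were 14 members, 1.87%, where 25.6% of all bins lie. Members were 6.90% of the bins in the first 10 Mb, 12.9% at 10 to 20 Mb and 6.14% at 20 to 40 Mb. The distance of 40 Mb was chosen after the positions had been seen.

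This held for nearly every chromosome and within LADs. The share of bins that were members was higher in the first 40 Mb than beyond on 18 of 19 chromosomes. The exception was chromosome 7, with 0.552% and 1.04%. Chromosome 19 had all its 29 members in the first 40 Mb, and chromosome 13 had 40 of 42. Among bins in both LAD lists that held no gene midpoint, 396 of 2569 (15.4%) were members within 40 Mb and 107 of 6077 (1.76%) beyond. Among the bins high in zygotes and at the 2-cell stage, the share that became low by 8-cell was 31.2% in the first 10 Mb. It was 37.1% at 10 to 20 Mb and 32.5% at 20 to 40 Mb. At 40 to 60 Mb it was 25.3% and from 100 Mb on 2.90%.

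The signal over all bins also differed with distance in some groups that had no part in the choice. Over all bins 10 to 20 Mb from the centromeric end the mean OE was 1.34 in maternal and 1.16 in paternal pronuclei, 1.21 in DMSO zygotes and 1.02 in ES cells. From 100 Mb on it was 0.903, 0.975, 0.927 and 0.991. In the first 10 Mb maternal pronuclei had 1.14 and paternal ones 0.837. Paternal pronuclei had 1.1 at 40 to 60 Mb and ES cells had their highest value, 1.05, at 80 to 100 Mb, so neither fell steadily with distance. With Dam alone at the 8-cell stage it was 0.629 at 10 to 20 Mb and 1.32 from 100 Mb on. At the 8-cell stage with Dam-lamin B1 the same classes had 0.902 and 1.2.

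**Figure D3:**
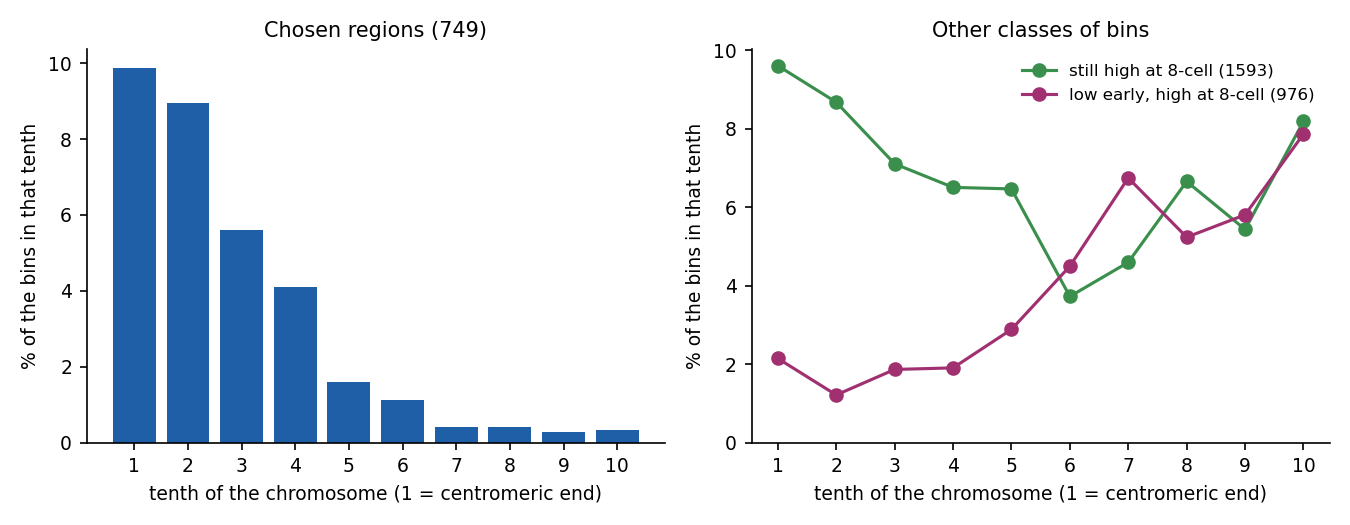
Bars on the left give the percent of bins that are among the 749 regions in each of 10 equal parts of the chromosome, from the centromeric end, summed over 19 autosomes. Lines on the right give the same for bins that stayed high and for bins that rose late: the regions fall from 9.87% in the first to 0.328% in the last, and the late bins go from 2.15% to 7.87%.

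Most members were single bins. The 749 members formed 561 runs, of which 439 were single bins, 78 had 2 bins, 28 had 3, 13 had 4, 2 had 5 and 1 had 8. Members lay in 195 of 502 windows of 5 Mb, most densely at chr15:20000001-25000000 with 18 of 50 bins and chr6:10000001-15000000 with 17 of 50.

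The longest run, chr13:10000001-10800000, touches Chrm3 alone, in 4 of its 8 bins, and lies in both LAD lists. Over its 8 bins the lowest, median and highest zygote had 0.409, 1.63 and 2.51, the 2-cell blastomeres 0.0948, 1.60 and 3.16, and the 8-cell blastomeres 0, 0.578 and 1.80. The groups overlap cell by cell, although their means were 1.46, 1.62 and 0.611. In ES cells it stood at 1.27 ± 0.597 (SD, n = 10). The runs of 5 bins were chr12:5800001-6300000, which touches no protein-coding gene, and chr1:20000001-20500000, which holds Pkhd1, the gene of the cilium protein fibrocystin. Their means were 1.94, 2.08 and 0.776, and 1.69, 1.75 and 0.572, in zygotes, at the 2-cell and at the 8-cell stage. Next came the 4-bin runs chr13:7800001-8200000 (1.76, 2.31 and 0.634) and chr19:19400001-19800000 (2.16, 1.51 and 0.598), neither of which touches one.

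The 10 members with the largest drop mostly touched no protein-coding gene. The first was chr12:5800001-5900000, at 1.93 ± 1.55 in zygotes, 3.55 ± 2.53 at the 2-cell and 0.777 ± 1.07 at the 8-cell stage (SD). It had OE of at least 1 in 13 of 19 zygotes, 45 of 47 2-cell and 10 of 41 8-cell blastomeres. At chr3:13900001-14000000 it was 12 of 19, 25 of 47 and 0 of 41, and at chr4:24200001-24300000 16 of 19, 32 of 47 and 2 of 41. The bin on chromosome 3 had 31 reads over the 41 8-cell blastomeres, so cells without contact and cells without reads are hard to separate. The others were chr12:6600001-6700000, chr13:7800001-7900000, chr19:15200001-15300000, chr6:16000001-16100000, chr15:21800001-21900000, chr13:11600001-11700000 and chr1:25400001-25500000. Of the 10, 3 touch a gene: the bin on chromosome 3 lies in Ralyl, chr13:11600001-11700000 touches Ryr2, which encodes a calcium release channel, and the last touches Adgrb3. Adgrb3 encodes an adhesion receptor of neurons, and its bin had 3.15 in zygotes, 1.23 at the 2-cell and 0.592 at the 8-cell stage.

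The bins beside a member are described here with no test. The 1023 non-members next to a member averaged 1.47 in zygotes, 1.37 at the 2-cell and 0.934 at the 8-cell stage. Of them 68.7% and 58.4% were high early, and 38.8% were low at the 8-cell stage, beside 46.2% of all bins. With Dam at the 8-cell stage these neighbours had 0.388, close to the 0.364 of the members. The neighbours exclude every bin that met the rule, and the cells are those that chose the members, so the rule itself sets how the Dam-lamin B1 values of members and neighbours differ at these stages. The Dam values had no part in the rule. At 1.5 Mb to either side the Dam mean was 0.674 and 0.604.

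**Figure D4:**
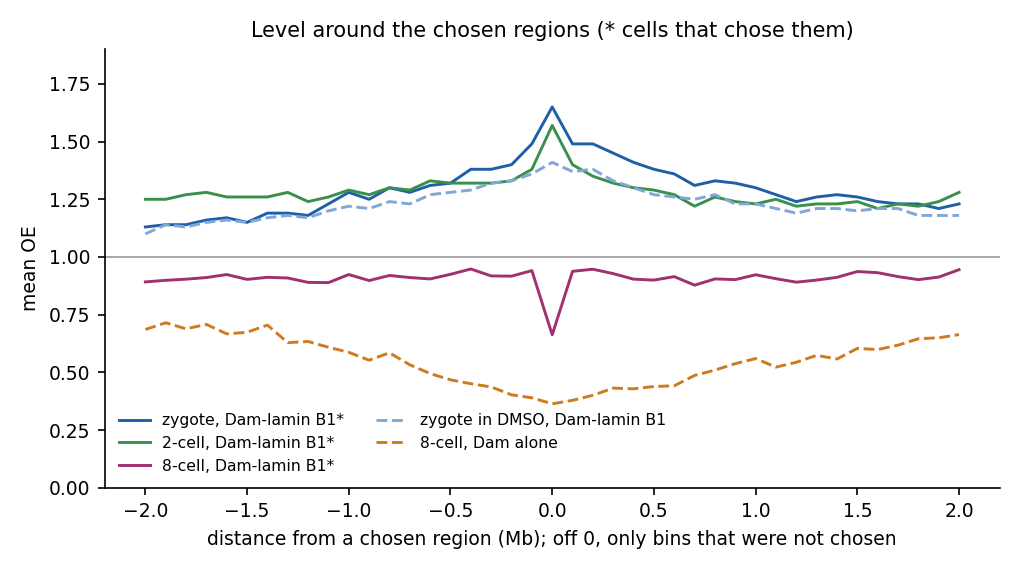
Mean OE is plotted against the distance from a region, up to 2 Mb to each side. The 8-cell line dips from about 0.93 beside a region to 0.663 at it, a step that the choice of regions sets, and the Dam line is at 0.364 at a region and 0.674 at 1.5 Mb before it.

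Nearly all members were LADs of the later embryo. The authors deposited 460 LADs of the inner cell mass (ICM) and 503 of the trophectoderm (TE), the lineages of the blastocyst. Both lists covered 576 members, or 76.9% (95% exact interval 73.7 to 79.9%), beside 50.3% of all bins and 90.4% of those that stayed high. Only the ICM list covered 73, only the TE list 65 and neither 35 (4.67%, beside 32% of all bins). With Dam in zygotes the members in both lists had 0.689, those in the TE list only 0.687 and those in the ICM list only 0.798. With Dam at the 8-cell stage they had 0.291, 0.607 and 0.408. The 35 members outside both lists had 1.29 and 1.01 with Dam, and 0.851 in ES cells with Dam-lamin B1.

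Members held few genes. With each gene placed by its midpoint they held 195 protein-coding genes, 0.260 per bin, beside 0.855 over all bins and 0.452 in the bins that stayed high, and 622 members (83.0%) held no midpoint. By the whole span of genes, 437 members (58.3%) touched none, beside 35.1% of all bins and 45% of the bins that stayed high. The genes they did hold were long, with a median of 28.0 kb beside 17.6 kb over all genes and 18.0 kb in the bins that stayed high. Of the 195, 58 (29.7%) exceeded 100 kb, beside 11.3% of all genes. In the bins that stayed high this was 17.4% and in those between the thresholds 23.0%. The 35 members outside both LAD lists held 1.17 genes per bin.

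Genes of neurons and receptor families were among those in members. Of 57 long adhesion and synapse genes of neurons, 4 lay in members, which is 7.02% beside 0.95% of all genes. They were Nxph1 (a neurexin ligand), Pcdh15, Cdh12 (a cadherin) and Lsamp (a neuronal surface protein). Another 8 lay in bins that stayed high and 8 in those between the thresholds, so such genes were not particular to members. These 2 classes held 720 and 274 protein-coding genes in all, beside 195 in members. The Nxph1 bin, chr6:9000001-9100000, went from 1.86 in zygotes and 2.24 at the 2-cell stage to 0.608 at the 8-cell stage and had 1.64 in ES cells. The Lsamp bin, chr16:41000001-41100000, had 1.22, 1.26 and 0.599, and 0.689 in ES cells. Of 36 glutamate and GABA receptor genes 1 lay in a member, Grm3, at 1.46, 2.02 and 0.534. The potassium channel list gave Kcnq5 and Kcnip4, the collagens Col19a1 and the cytochrome P450 list Cyp7b1. The lists were written with earlier results of these data known and are not independent evidence.

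Gene families of the chemical senses gave 20 of 1099 olfactory receptor genes (1.82%) and 5 of 340 vomeronasal receptor genes (1.47%). Bins that stayed high held 125 and 38 of them. Of the 20 Olfr genes, 14 were on chromosome 19, in 5 members between 12.0 and 13.1 Mb. There the bin with Olfr1453, Olfr1454 and Olfr1457 had 2.00 in zygotes, 1.26 at the 2-cell and 0.632 at the 8-cell stage. Close by, chr19:11600001-11700000 holds Oosp1 and Oosp2, which encode proteins secreted by oocytes, and Ms4a2 and Ms4a3, of immune cells. That bin had 1.21, 2.35 and 0.430, and in ES cells 1.63. Oocytes, where the Oosp genes are known to be expressed, had 0.952. No gene of 19 of the 31 lists lay in a member, among them those for pluripotency (22 genes), trophectoderm (18), primitive endoderm (16) and ribosomal proteins (76). With 0.95% of all genes in members, such an absence is near the background for lists this short. The longest lists without a gene in a member were Zfp zinc finger genes (356) and solute carriers (324), and their absence was not tested.

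A few members were gene-rich and open to Dam. The Hoxc bin, chr15:103000001-103100000, with Hoxc4, Hoxc5 and Hoxc6, had 1.2, 1.39 and 0.833 with Dam-lamin B1 in zygotes, at the 2-cell and at the 8-cell stage. With Dam it had 2.21, 1.71 and 1.98 and so lay above lamin B1 throughout. Likewise chr11:58900001-59000000, with Trim11, Trim17 and the histone genes H2bu2, H2aw and H3f4, had 1.17, 1.26 and 0.583 with lamin B1 and 1.56, 1.53 and 2.21 with Dam. At chr11:115900001-116000000, with Recql5 (a DNA helicase) and Itgb4 (an integrin), lamin B1 gave 1.36, 1.34 and 0.774 and Dam 2.34, 3.06 and 6.24. Dam was also high in zygotes at chr17:31200001-31300000 (2.52), with Ubash3a and Rsph1, and at chr17:30800001-30900000 (2.47), which touches Dnah8. The members lowest with Dam in zygotes were chr5:11000001-11100000 (0.254), chr5:16200001-16300000 (0.278) and chr9:17200001-17300000 (0.306), all in both LAD lists. Of these the second touches Cacna2d1, a calcium channel subunit gene. Other gene-rich runs were chr3:59100001-59400000, with the purinergic receptor genes P2ry12, P2ry13 and P2ry14, and chr6:41300001-41400000, with the trypsin genes Try4, Try5 and Try10. Their lamin B1 means were 1.53, 1.93 and 0.746, and 1.91, 1.39 and 0.697.

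Kdm5b is a histone demethylase that acts on a mark of active promoters, and zygotes received its wild-type or mutant mRNA. In paternal pronuclei the members averaged 0.987 ± 0.109 with wild-type Kdm5b (lowest, median and highest of 19: 0.807, 1.02 and 1.12) and 1.30 ± 0.135 with the mutant (SD). The 6 mutant pronuclei ran from 1.12 to 1.44, so the groups touched only at 1.12. With wild-type Kdm5b 21.5% of members were high, beside 30.1% of all bins. With the mutant it was 63.6%, beside 36.4%, and in paternal pronuclei without Kdm5b 77.2%, beside 34.9%. The bins that stayed high also had lower levels with the wild type, 1.11 beside 1.37.

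Tested bin by bin with limma, which was run on log2(OE + 0.5) with Benjamini-Hochberg adjustment over all bins, none of the 749 members passed an adjusted p of 0.05 in paternal pronuclei. Of all 23955 bins tested 0% passed as well, and at an unadjusted p under 0.05 there were 119 members (15.9%), beside 14.5% of all bins. In windows of 1 Mb, which carry less counting error, 135 of the 403 windows with a member passed (33.5%), beside 32% of all 2403 windows. The count is at the background, but its direction was uneven. Lower with the wild type were 118 (29.3%), beside 15.1% of all windows, and higher 17, beside 16.8%. The median log2 difference was -0.19 in windows with a member and 0.08 over all windows. In 585 windows with a bin that stayed high and no member, 114 (19.5%) were lower and the median was -0.08. A window with a member also holds bins that are no members, and the members were picked for high zygote signal. The 1 with the smallest adjusted p, chr11:39000001-40000000, had 0.797 ± 0.163 (SD, n = 19) with the wild type and 1.65 ± 0.345 (SD, n = 6) with the mutant, a log2 difference of -0.72 ± 0.11 (SE, limma adjusted p = 0.000254).

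In maternal pronuclei the members averaged 1.38 ± 0.20 with wild-type Kdm5b (n = 19) and 1.60 ± 0.286 with the mutant (SD, n = 13), and the cells overlapped from 1.22 to 1.86. The bins that stayed high had 1.37 with the wild type and 1.54 with the mutant. With limma no member passed, as 0% of all bins did. At an unadjusted p under 0.05 there were 63 members (8.41%), beside 9.23% of all bins. Of windows with a member 1 passed, chr16:78000001-79000000, higher with the wild type at 1.01 ± 0.416 beside 0.478 ± 0.248 (SD, limma adjusted p = 0.0389). Over all windows it was 0.333%, of which 0.291% were higher and 0.0416% lower with the wild type. Whether the Kdm5b difference itself differs between paternal and maternal pronuclei was not tested.

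In whole zygotes the members averaged 1.27 ± 0.208 with wild-type (n = 14) and 1.56 ± 0.298 with mutant Kdm5b (SD, n = 9). The bins that stayed high also had a lower level with the wild type, 1.36 beside 1.61. Again no member and 0% of all bins passed in limma. At an unadjusted p under 0.05 there were 67 members (8.95%), beside 16.7% of all bins. Of windows with a member 6 passed (1.49%), beside 4.54% of all windows. Of these, 5 were lower with the wild type (1.24%, beside 0.707% of all windows) and 1 was higher (beside 3.83%). The window chr11:39000001-40000000 was again among them, at 0.840 ± 0.279 and 1.67 ± 0.556 (SD, limma adjusted p = 0.0395). The depth differed between these groups, with a median of 216241 reads per zygote for the wild type and 85766 for the mutant, and its part in the result was not tested.

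**Figure D5:**
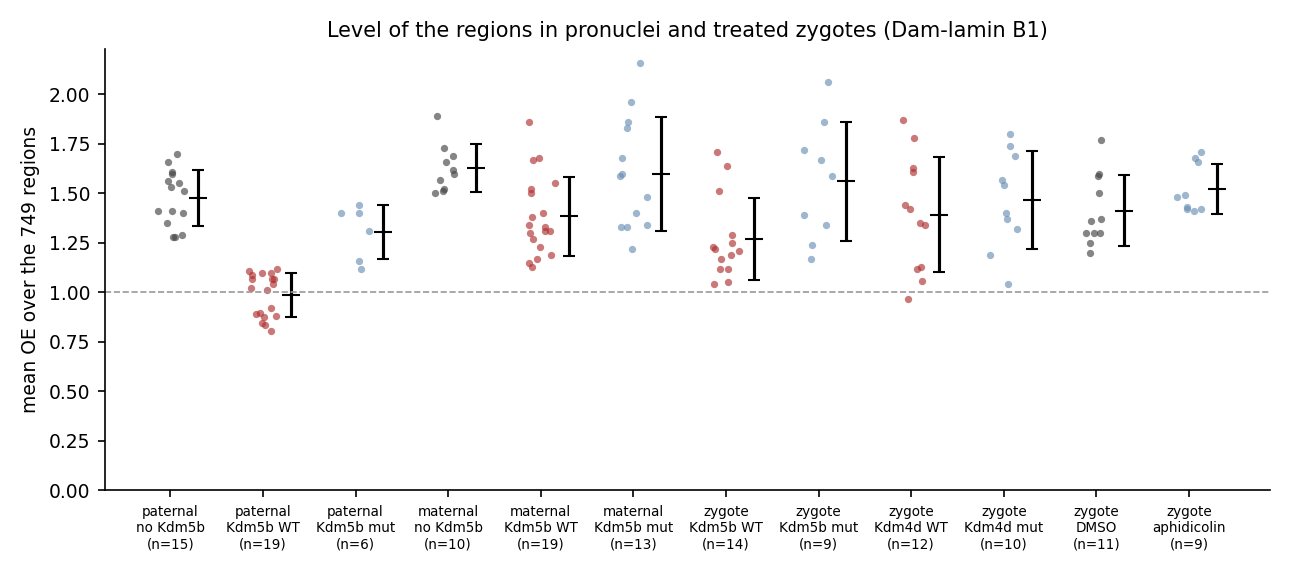
Each point is 1 pronucleus or zygote with Dam-lamin B1 and shows its mean OE over the 749 regions. Bars give the mean and SD. Paternal pronuclei with wild-type Kdm5b lie between 0.807 and 1.12, and the other groups have means from 1.27 to 1.63.

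Paternal and maternal pronuclei without Kdm5b differed in few members. With limma 7 of 749 members passed (0.935%), beside 1.79% of all bins, 6 higher in the paternal and 1 in the maternal pronuclei. Of windows with a member 20 passed (4.96%), beside 8.49% of all windows. Of these, 14 were higher in paternal pronuclei (3.47%, beside 6.82%) and 6 in maternal ones (1.49%, beside 1.66%). The smallest adjusted p was at chr16:43400001-43500000, with 1.9 ± 1.1 in 15 paternal and 0.223 ± 0.25 in 10 maternal pronuclei (SD, log2 difference 1.63 ± 0.36 SE, limma adjusted p = 0.0103). Others higher in paternal pronuclei were chr9:94000001-94100000, chr12:37200001-37300000 and chr13:25600001-25700000, with log2 differences of 1.61, 1.46 and 1.46. At chr9:29200001-29300000 the maternal pronuclei were higher, 2.12 ± 1.48 beside 0.482 ± 0.465 (SD, limma adjusted p = 0.0263). Of these 5 bins, the first lies in Zbtb20 and the last in Ntm, a neuronal adhesion gene, and the one on chromosome 12 touches Agmo. The other two touch no protein-coding gene.

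Kdm4d, another histone demethylase, and aphidicolin were tested in whole zygotes. With wild-type Kdm4d the members averaged 1.39 ± 0.290 (n = 12) and with the mutant 1.47 ± 0.248 (SD, n = 10). In limma no member passed, beside 0.00418% of all bins, and no window, as 0% of all did. At an unadjusted p under 0.05 there were 27 members (3.6%, beside 4% of all bins) and 11 windows with a member (2.73%, beside 3.62% of all windows). With aphidicolin the members averaged 1.52 ± 0.124 (n = 9) and with DMSO 1.41 ± 0.178 (SD, n = 11). Here too no member passed in limma, beside 0.0126% of all bins, and no window, as 0% of all did. At an unadjusted p under 0.05 there were 61 members (8.14%, beside 5.71% of all bins) and 27 windows with a member (6.7%, beside 6.03% of all windows). In none of the 6 comparisons did a Fisher's exact test on the share of cells with OE of at least 1 call a member, and it called 0 of all bins as well, so this 0 says nothing about the members. No label gives the mother, litter or day of a cell, so these p-values measure the spread between cells, which may share an embryo or a preparation.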

How the data were processed

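The authors deposited, for each cell, the ratio of observed to expected reads (OE) in 24639 bins of 100 kb on the autosomes. The submitters' processing notes name build mm10, cutadapt and BWA 0.7.12. The basis of the expected number is not stated in the sources at hand. Bins without a value (617) were left out. The deposited LAD lists give intervals only, and a bin counted as in a list when covered at least 50%. Samples were grouped by their labels; 14 of 512 cells with contradicting labels, among them 1 named as an 8-cell blastomere with Dam-lamin B1, entered no group. The members and lists were chosen with earlier results of these data known. Genes were placed by their midpoint, from RefSeq build GRCm38.p6.

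Comparisons used limma 3.58.1 in R 4.3.3 on log2(OE + 0.5) with a trend, 2-sided, over all bins with a mean OE of at least 0.2 or over 1 Mb windows with at least 5 bins, called at a Benjamini-Hochberg adjusted p under 0.05. The test was also run on simulated data. These had independent bins and group sizes that differ from those compared here, so what the fits could miss in these groups was not measured. Named bins and genes were the 5 longest runs, the 10 largest drops, genes of 31 lists, the 5 smallest adjusted p per comparison with a call, the 3 highest and 3 lowest in 3 groups, the 3 nearest each threshold and the 5 runs with the most genes. Windows of 1 Mb were named by the smallest adjusted p, after their values had been seen. The promoters shown are of genes so named. Reads were recovered as whole steps of OE: within 0.02 reads of a whole number lay 99.5% to 100% of a cell's values of up to 12 reads. Intervals cover counting error only. Pools of cells were not used here.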

Additional observations from a re-analysis of the deposited data

How the results depend on the processing

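The number of members ran from 543 with thresholds of 1.2 and 0.8 to 1026 with 1.1 and 0.9, and was 739 when the 8-cell blastomere with contradicting labels was added. Among the deeper cells only, the mean OE of the members was 0.522 in 8-cell blastomeres with Dam and 0.819 in zygotes with Dam, and 69.1% of members lay in the first 40 Mb. That share was 72.8% with thresholds of 1.1 and 0.9. Medians over cells in place of means put 83.2% of members in both LAD lists. Leaving out each of the 4 8-cell blastomeres with Dam gave 0.349 to 0.393. Leaving out the 8-cell blastomere with the highest member level, and the alternatives for the first 40 Mb, were chosen after seeing the data; without that cell there were 785 members, 76.1% of them in the first 40 Mb.

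With a pseudocount of 1 in place of 0.5, 0 windows with a member were called between maternal pronuclei with wild-type and mutant Kdm5b. Fisher's exact test called 0 members between paternal and maternal pronuclei. With the replicate number as a replicate block over the numbers both groups share, 0 windows with a member were called for Kdm5b in paternal pronuclei, maternal pronuclei or whole zygotes, and 9 windows and 4 members between paternal and maternal pronuclei. That fit also holds fewer cells. Same-numbered cells had a median r of their deviations between -0.02 and 0.07 over the 6 comparisons, and 3, 0, 2, 2, 2 and 1 cells correlated best with their own number. Single pairs of whole zygotes ran from -0.25 to 0.37 for Kdm5b, with 4 of 9 above 0.1. For Kdm4d they ran from -0.17 to 0.40, with 4 of 10 above 0.1. These values do not settle whether some cells were paired. The other alternatives kept the counts within 1.5 times.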

Other observations

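The 8-cell blastomere whose labels name both constructs had a mean OE of 0.913 over the members, 1.61 over the bins that stayed high and 1.01 over all bins. The 13 oocytes whose labels disagree on 20 or 50 ng had between 0.870 and 1.07 over the members.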
